A study of Mus musculus with 108 samples.

Results

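Night was set against day in the livers of male C57BL/6J (B6) mice, wild type in genotype and fed normal chow. The night group held 6 libraries, 3 from zeitgeber time (ZT) 18 and 3 from ZT22, and the day group held 6 libraries, 3 from ZT6 and 3 from ZT10. These 12 libraries were picked by their strain, diet and time labels, out of 72 in the wild-type table and 108 labelled in the series. The comparison itself was chosen with earlier results of these data known. ZT counts the hours since lights on. The labels give neither the light schedule, nor the feeding schedule, nor the age of the mice, and they do not say that the numbered replicates are separate animals, so what the p-values capture is variation among the deposited libraries, which may be technical. Where a difference from other mice is reported, the comparison groups were male wild-type B6 mice on a high fat and sucrose diet (HFD, D12492i) and male wild-type 129S1/SvImJ (129) mice on normal chow, each with 3 libraries at the same 4 times.

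Mice eat mostly in the dark, so the night libraries come from hours in which a mouse with free access to food usually feeds, and the day libraries from hours in which it usually rests and draws on its stores. The liver clock is a loop in which CLOCK and BMAL1 (encoded by Arntl) switch on the Per, Cry and Rev-erb genes, whose proteins then hold CLOCK and BMAL1, or the Arntl gene itself, in check. Liver metabolism follows both this loop and the hormones and temperature of the feeding cycle: glycogen, fat and protein turnover, bile formation and drug metabolism each have preferred hours.

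Values were quantile-normalised read numbers per transcript, with 1 transcript kept per gene, and they are called levels here. Of 11190 genes whose level averaged at least 10 over the 12 libraries, 233 were higher by night (2.08% of those tested) and 306 were higher by day (2.73%), by limma on log2(level + 1) with a Benjamini-Hochberg adjusted p below 0.05. Folds below are on that log2 scale, night minus day, and understate the change of low genes. The change was at least 2-fold for 68 of the genes higher by night and 53 of those higher by day. In 114 genes all 6 night libraries lay above all 6 day libraries (1.02%), and in 125 genes all 6 day libraries lay above all 6 night libraries (1.12%). The median change over all genes tested was 0.02, and 5916 of the 11190 genes had a change above 0. Counts of called list members below stand beside the shares over all genes, 2.08% higher by night and 2.73% higher by day. No list was tested as a set.

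Libraries of the same time correlated at 0.927 to 0.985. The first principal component, with 49.3% of the variance, did not part night from day, and followed the slope of the levels on the GC content of the transcripts (Pearson r 0.996 over the 12 libraries, a description). The second component, with 13.0%, parted all 6 day libraries (7.36 to 29.5) from all 6 night libraries (−30.4 to −10.9). The GC slope itself differed by 0.12 between night and day (exact permutation test over 924 splits, two-sided, p = 0.673, adjusted p = 0.777). The slope on transcript length was 0.044 by day and −0.044 by night on average, and its exact permutation p of 0.0216 (adjusted p = 0.325) was the smallest of the 15 library measures. With the GC and length trend removed, 447 genes were higher by night and 396 higher by day, so the larger share of day calls turned into a larger share of night calls. Of the 89 called genes named below, 55 kept their call whichever of the 12 libraries was left out, and the other 34 lost it without at least 1 library. Those 34 are pointed out where they appear.

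Among genes whose night libraries all lay above their day libraries, the largest rises were in genes of drug, lipid and steroid metabolism, nicotinamide and tryptophan breakdown, and the clock. Larger or similar rises with overlapping groups (Fam107a, Cdkn1a and Arntl) are described further on. Cyp2b10, a cytochrome P450 of drug clearance (chr7:25897658-25926624, mm10), had levels of 66.4, 102 and 119 (lowest, median and highest) by day and 304, 901 and 1165 by night, a rise of 2.84 ± 0.29 (SE, n = 6 and 6, limma adjusted p 9.99e-05). Acnat2, a peroxisomal acyltransferase that joins fatty acids to amino acids, had 57.6, 79.3 and 197 by day and 294, 533 and 782 by night, a rise of 2.51 ± 0.18. No night library of either gene reached down to the day range. Both genes have close relatives in the genome with which reads can be shared, so the share of each copy is uncertain. Cyp17a1, the enzyme that turns progestogens into androgens, rose by 2.09 ± 0.26, from 25.5, 34.4 and 59.9 to 64.7, 160 and 332. The call of Cyp17a1 was lost for ZT18 against ZT6 and with the 18 libraries that add ZT2 and ZT14.

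Acmsd and Nnmt act on either side of NAD: Acmsd diverts tryptophan breakdown away from NAD synthesis, and Nnmt methylates nicotinamide. Acmsd went from 79.5, 117 and 153 by day to 325, 479 and 636 by night (2.03 ± 0.17). Nnmt went from 159, 297 and 341 to 730, 962 and 1246 (1.75 ± 0.18). The night and day libraries did not overlap for either gene. Ddit4, an inhibitor of the growth kinase complex mTORC1, had levels of 6.93, 9.91 and 20.9 by day and 30.0, 37.4 and 54.4 by night (1.77 ± 0.27). Zbtb16, a zinc finger transcription factor, rose by 1.94 ± 0.30. The transporter genes Slc45a3 and Slc16a5 rose by 1.75 ± 0.16 and 1.73 ± 0.35. The unnamed transcript E030018B13Rik, with a day range of 0 to 21.0 and a night range of 29.0 to 92.7, rose by 2.29 ± 0.54. Its call was the weakest of the largest rises named here (limma adjusted p 0.0261) and reached an adjusted p of 0.0718 without 1 ZT22 library. Cry1 was also among the largest rises and is described with the clock.

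Among genes without overlap, the largest falls by night were led by clock genes, and included receptors and other membrane proteins. Nr1d1 (chr11:98767932-98775377), which encodes the repressor REV-ERB alpha, had 45.3, 66.6 and 134 by day and 0, 3.21 and 9.34 by night, a fall of 4.36 ± 0.40 on the log2 scale (limma adjusted p 4.37e-05). Erbb4, a receptor for neuregulins, fell by 2.297 ± 0.20, from 85.2, 135 and 174 to 18.7, 24.8 and 34.9. Adgrf1, an adhesion G protein-coupled receptor, fell by 2.54 ± 0.27. Clec2h, a C-type lectin, fell by 2.11 ± 0.36, and Tnfrsf19, a receptor of the tumour necrosis factor family, by 1.49 ± 0.19. Syt1, a vesicle calcium sensor, fell by 1.52 ± 0.14. Erbb4, Adgrf1, Clec2h, Tnfrsf19 and Syt1 kept their 6 day libraries above their 6 night libraries.

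Hsd3b5, a steroid-metabolising enzyme that male mouse liver is known for, had 795, 1096 and 1816 by day and 175, 467 and 633 by night (−1.45 ± 0.28). Elf5, an ETS transcription factor, fell by 1.41 ± 0.28 and Gbp10, a guanylate-binding protein with near-identical copies in its cluster, by 1.39 ± 0.24. In none of the 22 genes of the heat map did the night libraries overlap the day libraries. That property was part of how they were picked.

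**Figure D1:**
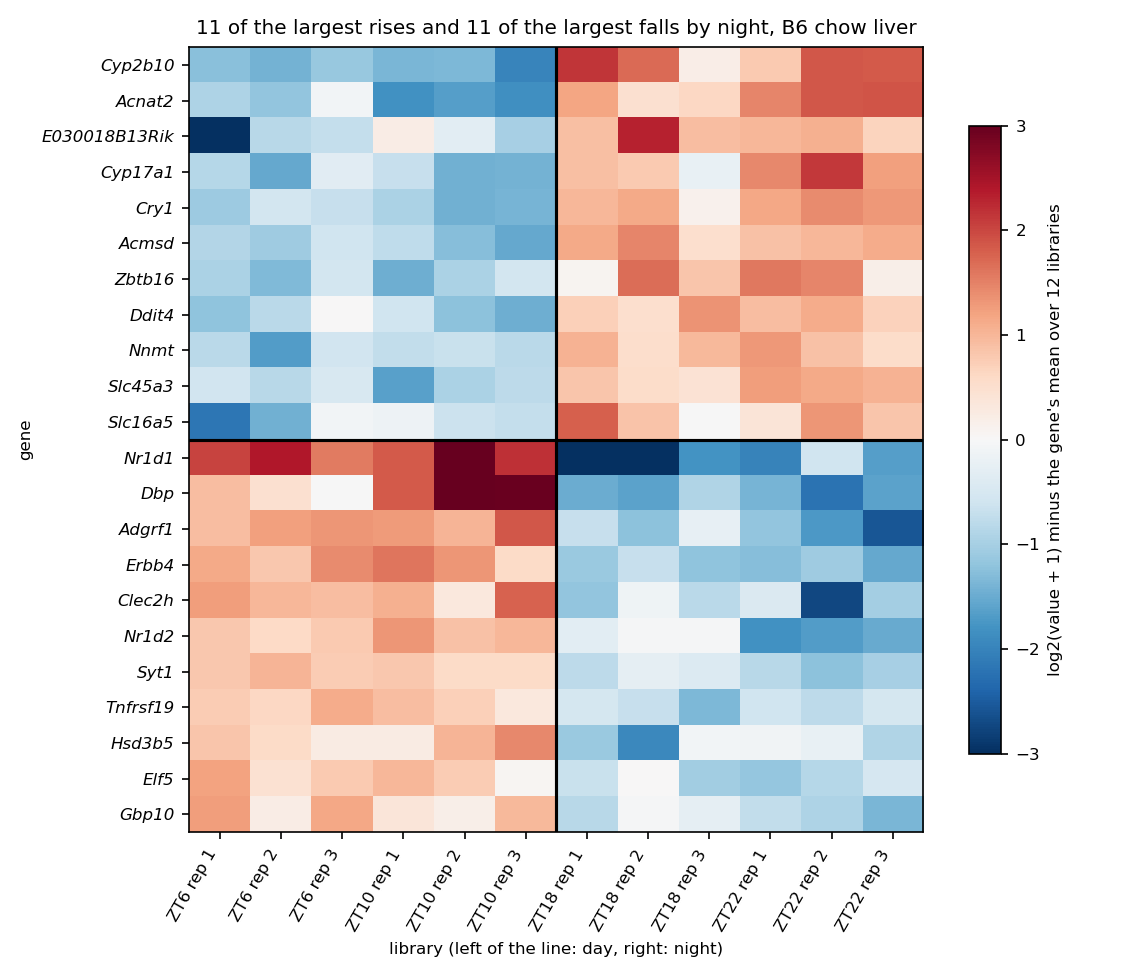
Heat map of 11 of the genes with the largest rises (upper rows) and 11 of those with the largest falls (lower rows), with 1 column per library, 6 day libraries on the left and 6 night libraries on the right. Colour is log2(level + 1) minus the gene's mean over the 12 libraries, red above and blue below the mean, and its scale ends at −3 and 3. Nr1d1, at 45.3 to 134 by day and 0 to 9.34 by night, has the strongest contrast.

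Of 17 core clock genes tested, 3 rose and 5 fell by night, and Npas2 was below the level filter. Among the activators, Arntl rose by 2.27 ± 0.20, although its groups overlapped: its mean was 101 ± 18.08 (SD, n = 3) at ZT6, 13.8 ± 4.94 at ZT10, 159 ± 54.1 at ZT18 and 218 ± 11.3 at ZT22. Of these 4 times Arntl was lowest at ZT10. It was as low at ZT14, outside the comparison, at 19.7 ± 21.0, and with the 18 libraries that add ZT2 and ZT14 its change was 0.19 (limma adjusted p 0.825). Clock, its partner, had a change of 0.42 ± 0.11 (limma adjusted p 0.0506). Among the nuclear receptors of the loop, the repressors Nr1d1 and Nr1d2 fell. Nr1d2, encoding REV-ERB beta, fell by 1.80 ± 0.11, from 1146, 1361 and 1912 to 214, 435 and 740 (limma adjusted p 2.29e-06). Rora, an activator at the DNA element that both repressors bind, showed a change of −0.15 ± 0.11.

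The Per and Cry repressors did not move as one. Cry1 (chr10:85131700-85185054) rose by 2.04 ± 0.18, from 46.3, 62.1 and 86.5 to 138, 282 and 338 (limma adjusted p 3.31e-05), while Cry2 showed 0.14 ± 0.19. Per3 fell by 0.88 ± 0.15, Per2 had a change of 0.69 ± 0.20 (limma adjusted p 0.0644) and Per1 one of −0.02 ± 0.52. Per3 had a mean of 79.8 ± 11.2 at ZT6, 243 ± 37.0 at ZT10, 107 ± 16.5 at ZT18 and 53.6 ± 11.0 at ZT22, so that its fall came from the ZT10 libraries: ZT18 alone against ZT6 alone gave a change of 0.41. Among the outputs of the loop, Dbp, an activator of D-box genes, fell by 3.08 ± 0.27, from 33.3, 93.9 and 285 to 6.42, 10.8 and 17.4. Nfil3, a repressor at the same D-box, rose by 1.02 ± 0.12, from 54.96, 73.7 and 86.6 to 92.1, 153 and 212, a change that was 0.26 with the 18 libraries (limma adjusted p 0.477). Bhlhe41, a repressor of E-box genes, fell by 3.07 ± 0.52, from a day range of 2.40 to 52.6 to a night range of 0 to 3.18. The falls of Dbp, Nr1d2, Bhlhe41 and Per3 were also not called with the 18 libraries. Dbp then changed by −0.41 (limma adjusted p 0.542) and Nr1d2 by −0.48 (limma adjusted p 0.0778). Nr1d1 and Cry1 kept their calls. Tef, Hlf, Ciart and Bhlhe40 were not called, with changes of −0.31, −0.07, 0.26 and −0.00.

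The promoters of 15 of these clock genes, taken as the 250 bases before the start in RefSeq on GRCm38.p6 (the assembly of mm10), were searched for 3 elements on both strands. The E-box CACGTG, bound by CLOCK and BMAL1, was present in 4 (Cry1, Bhlhe41, Ciart and Tef) against 8.63% of 8605 such promoters of tested genes. A D-box (TTATGTAA or TTACATAA) was present in 1, Per3, against 0.523%. The REV-ERB and ROR element, written as AGGTCA directly preceded by a pair of A or T, was in none of the 15 windows against 2.22%. A match is a description of the letters, and other forms of these elements or sites outside the window were not searched. The windows below are shown because the 3 genes were called and hold a match, in capitals: Cry1 at chr10:85185084-85185139, Bhlhe41 at chr6:145865543-145865598 and Per3 at chr4:151044791-151044895, all read on the minus strand.
Cry1: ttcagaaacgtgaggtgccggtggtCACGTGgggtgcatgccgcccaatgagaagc
Bhlhe41: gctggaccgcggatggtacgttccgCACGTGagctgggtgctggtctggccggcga
Per3: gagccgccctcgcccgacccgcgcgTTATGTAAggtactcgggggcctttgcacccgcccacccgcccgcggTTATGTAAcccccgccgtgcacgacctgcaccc
The E-box began 60 bases before the start of Cry1 and 153 bases before that of Bhlhe41, and the D-boxes of Per3 began 205 and 158 bases before its start. Cry1, with its E-box, rose by night, and Bhlhe41, with the same letters, fell.

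**Figure D2:**
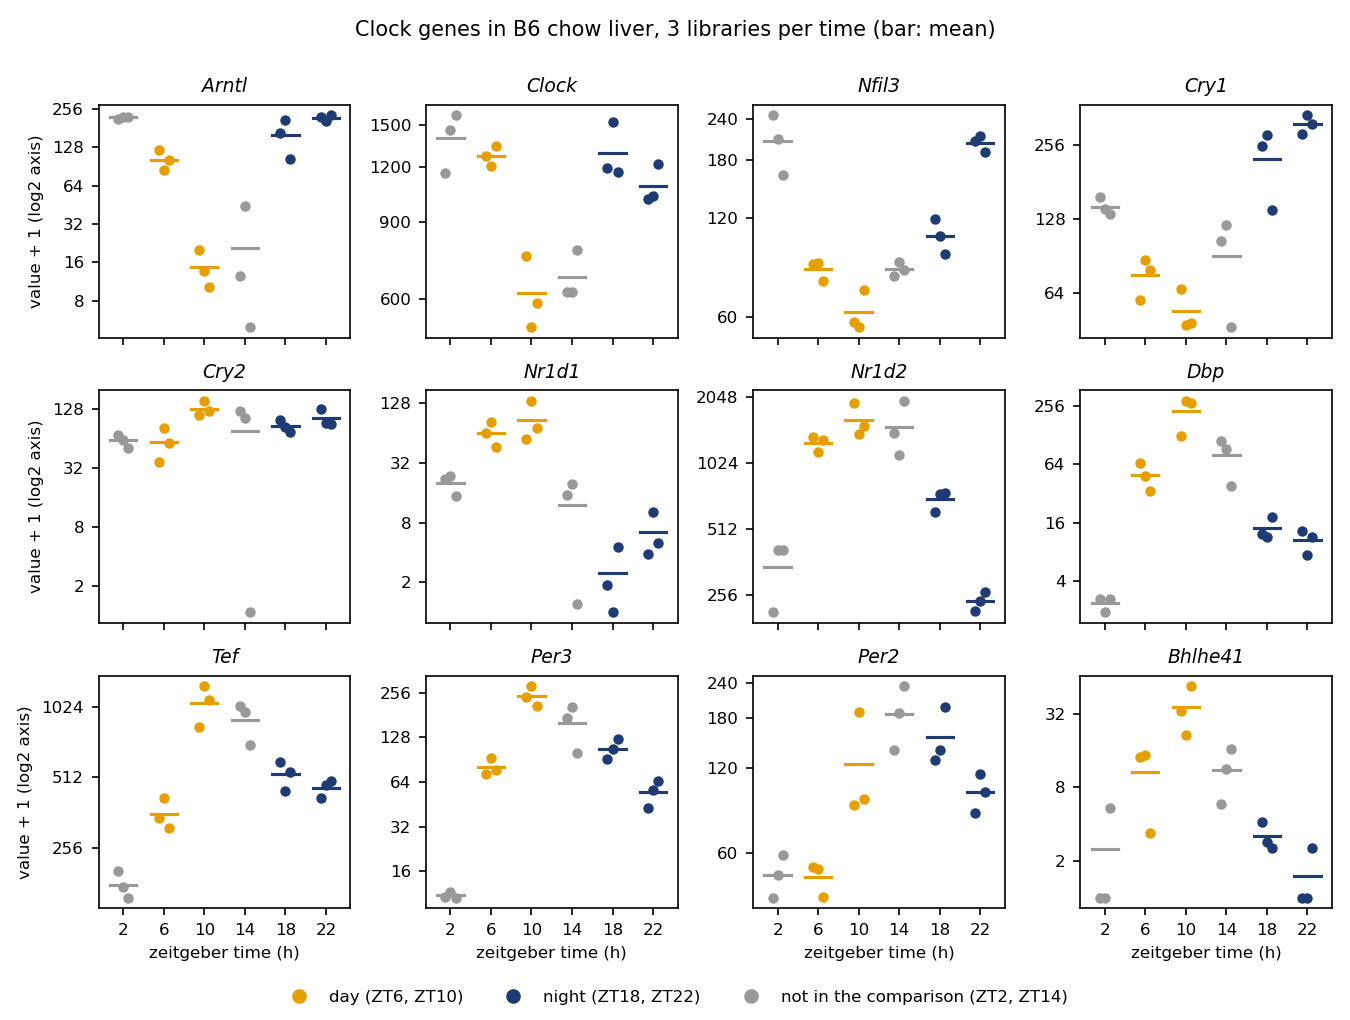
Levels of 12 core clock genes by zeitgeber time in B6 chow liver (level + 1 on a log2 axis, 1 point per library, bars at the mean of 3 libraries), with day in orange, night in blue and the times outside the comparison, ZT2 and ZT14, in grey. Cry1 lies higher at both night times, Nr1d1, Nr1d2 and Dbp lie higher at both day times, and Arntl is low at ZT10, at a mean of 13.8.

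Heat shock genes encode chaperones, mostly cytosolic, which keep proteins folded and are induced by heat through the factor HSF1. Many of the heat shock genes rose by night. Of 22 heat shock genes tested, 12 rose and none fell, all 22 had a change above 0, and the median change was 0.54 against 0.02 for all genes. The list has 24 members, 22 of which passed the filter. Of the 6 members of the HSP90 machine, 5 were called. Hsp90aa1, the inducible HSP90, had 868, 1439 and 1931 by day and 2411, 3781 and 5839 by night, a rise of 1.37 ± 0.15 (limma adjusted p 0.000237) with no overlap. Its constitutive partner Hsp90ab1 rose by 0.67 ± 0.13, from 2309, 2799 and 3349 to 3484, 4374 and 5384. The cochaperones Fkbp4, Ahsa1 and Chordc1 rose by 0.99 ± 0.24, 0.72 ± 0.14 and 0.70 ± 0.18.

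Among the HSP70 proteins and their helpers, 5 of 9 rose. Hspa4l and Hsph1, which exchange the nucleotide of HSP70, rose by 1.11 ± 0.12 and 0.96 ± 0.15. Hspa4l had 167, 251 and 333 by day and 418, 534 and 636 by night. Stip1, which passes clients from HSP70 to HSP90, rose by 0.93 ± 0.12, and Dnaja1 and Hspa8 by 0.56 ± 0.15 and 0.52 ± 0.14. Of the 22 heat shock genes tested, 5 had all 6 night libraries above all 6 day libraries, against 1.02% of all genes. Called members whose night range reached into the day range included Dnaja1, Hspa8, Chordc1 and Hspb1. The 6 chaperonins and small heat shock proteins had 2 rises: Hspb1, from 1.79, 14.7 and 17.1 to 15.0, 39.3 and 55.6 (1.83 ± 0.35), and Hspe1, the mitochondrial partner of HSP60, from 489, 622 and 654 to 779, 906 and 1104 (0.63 ± 0.12). The factor itself, Hsf1, had a change of 0.15 ± 0.31. Leaving out single libraries gave 8 to 11 called members, and ended at least once the calls of Fkbp4, Chordc1, Dnaja1 and Hspa8. With the GC and length trend removed, 13 members were called, and with the times pooled 6. Adding ZT2 and ZT14, for 18 libraries, left only Hspa4l and Hspe1 of the called members past the threshold. Hsp90aa1 then missed it at a limma adjusted p of 0.0837.

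Between ZT22 and ZT18, 2 of the 22 heat shock genes tested were called, both lower at ZT22. Hspa1b, an inducible HSP70 with a near-identical neighbour, was lower at ZT22 (9.19 ± 5.78, SD, n = 3) than at ZT18 (66.6 ± 12.7), by 2.87 on the log2 scale (limma adjusted p 0.016), and its night to day change was 0.17 ± 0.30. Dnaja1 was likewise lower at ZT22 than at ZT18, by 1.28 (limma adjusted p 0.0244). At ZT22 the means of both genes, 9.19 and 1180, lay below their day medians of 20.4 and 1256. HSF1 binds inverted repeats of GAA, and a core of such a repeat (TTCNNGAA or GAANNTTC) lay within 250 bases upstream in 8 of the 18 heat shock genes with a matched promoter, in 5 of the 9 called ones, and in 10.5% of all 8605 promoters. The 5 called promoters are shown with the cores in capitals: Hspb1 at chr5:135887777-135887854, Dnaja1 at chr4:40722319-40722376 and Hspe1 at chr1:55088034-55088101 on the plus strand, Hsph1 at chr5:149636337-149636394 and Fkbp4 at chr6:128438775-128438832 on the minus strand.
Hspb1: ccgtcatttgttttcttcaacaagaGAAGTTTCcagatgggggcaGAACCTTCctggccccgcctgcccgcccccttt
Hsph1: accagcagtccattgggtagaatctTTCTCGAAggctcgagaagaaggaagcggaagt
Fkbp4: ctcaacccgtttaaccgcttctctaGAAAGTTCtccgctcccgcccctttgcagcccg
Dnaja1: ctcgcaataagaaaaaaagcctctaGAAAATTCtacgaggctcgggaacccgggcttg
Hspe1: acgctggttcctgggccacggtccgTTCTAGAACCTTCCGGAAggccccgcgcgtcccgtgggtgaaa
In Hspe1 the capitals hold 3 overlapping cores and begin 89 bases before the start.

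Some genes of the urea cycle and of amino acid breakdown rose by night, and 3 amino acid carriers fell. Of 29 genes of amino acid use and the urea cycle tested, 6 rose and 3 fell, with a median change of 0.32. The rises were 3 of 7 urea cycle genes and 3 of 16 genes of amino acid breakdown, and the 3 falls were among the 6 genes of amino acid transport and synthesis. Asl, which splits argininosuccinate in the urea cycle, went from 308, 608 and 1652 to 770, 2105 and 3484 (1.43 ± 0.24, limma adjusted p 0.00506). Its call was lost with the times pooled, for ZT18 against ZT6 and for ZT22 against ZT10. It was also lost with the 18 libraries that add ZT2 and ZT14. Arg1, which releases urea, went from 6588, 7676 and 8519 to 8272, 11443 and 11975 (0.51 ± 0.11). Tat, which starts tyrosine breakdown, rose by 1.12 ± 0.21. Gpt2, an alanine aminotransferase, rose by 0.69 ± 0.12, and Aass, which starts lysine breakdown, by 0.52 ± 0.13.

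The falls were in carriers that bring amino acids into the cell: Slc7a2 (cationic amino acids, −0.72 ± 0.18), Slc38a2 (−0.66 ± 0.13) and Slc38a4 (−0.44 ± 0.11), both for small neutral amino acids. Slc38a2 had 1065, 1161 and 1250 by day and 580, 742 and 1009 by night, with no overlap. With single libraries left out, Arg1, Aass, Slc7a2 and Slc38a4 each lost their call at least once, at adjusted p values up to 0.115. With the GC and length trend removed, 7 genes of the list were higher and 1 lower by night, and Slc7a2 and Slc38a4 were among those lost, at adjusted p values of 0.0618 and 0.0659.

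Most of the bile and sterol transporters tested were called higher by day, and Slc10a1, Abcb4 and Slco1a1 were not called. Of 21 bile acid genes tested, 5 were lower and 1 higher by night, and the 5 falls were all among the 8 transporters, whose median change was −0.60. Abcc2, which exports conjugated compounds into bile, had 3972, 5163 and 6663 by day and 2472, 2920 and 3395 by night (−0.81 ± 0.12, limma adjusted p 0.00295), with no overlap. Abcb11, the bile salt export pump, had 6169, 8138 and 9076 by day and 4759, 5165 and 5995 by night (−0.56 ± 0.10), also with no overlap. Abcg5 and Abcg8, which together export sterols into bile, fell by 0.73 ± 0.11 and 1.04 ± 0.18. Both lost their calls for ZT18 against ZT6 and with the 18 libraries that add ZT2 and ZT14. Abcc2 and Abcb11 kept theirs with the 18 libraries. However, Abcc2 lost its call for ZT18 against ZT6 (limma adjusted p 0.0845) and Abcb11 for ZT22 against ZT10 (limma adjusted p 0.32). Slco1b2, an uptake carrier of the blood side, fell by 0.63 ± 0.16 and lost its call in 9 of 12 fits without 1 library.

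On the synthesis side, Akr1d1, a reductase of the bile acid pathway, rose by 0.65 ± 0.12. Cyp7a1, the rate-limiting enzyme of bile acid synthesis, had a change of 0.49 ± 0.31 (limma adjusted p 0.442), with means of 2860 ± 1428 (SD, n = 3) at ZT6, 3338 ± 1719 at ZT10, 6901 ± 2592 at ZT18 and 2405 ± 566 at ZT22. Its high level was at ZT18, and ZT22 was not above the day times. The element AGGTCA preceded by a pair of A or T occurred in the 250 bases upstream of 11 of 174 night genes with a matched promoter (6.32%), 4 of 236 day genes (1.69%) and 2.22% of all 8605. Among the named list genes it lay before Abcc2 and Abcb11, which fell, and before Pfkfb1, a glycolysis regulator, and the chaperonin Hspe1, which rose. The first 3 are shown for this element. Abcc2 at chr19:43782232-43782289 and Pfkfb1 at chrX:150589791-150589848 are given on the plus strand and Abcb11 at chr2:69342640-69342697 on the minus strand, with the element, or its reverse complement, in capitals.
Abcc2: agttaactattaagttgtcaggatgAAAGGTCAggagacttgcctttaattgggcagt
Abcb11: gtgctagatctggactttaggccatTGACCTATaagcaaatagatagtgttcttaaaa
Pfkfb1: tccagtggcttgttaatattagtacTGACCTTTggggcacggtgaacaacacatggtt
The element began 51, 56 and 100 bases before the starts of Abcc2, Abcb11 and Pfkfb1.

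Glycogen and glucose genes changed through a few members. Of 25 glycolysis and glycogen genes, 2 rose and 2 fell by night, with a median change of 0.23. Ppp1r3b, the liver subunit that directs protein phosphatase 1 to glycogen and activates glycogen synthase, had 960, 1625 and 1817 by day and 3972, 4361 and 4927 by night, a rise of 1.62 ± 0.14 (limma adjusted p 3.28e-05). The night and day ranges were far apart. Pfkfb1, which sets the level of fructose 2,6-bisphosphate, rose by 1.04 ± 0.15, from 101, 152 and 180 to 209, 323 and 390. The falls were Gyg, the primer of glycogen (−0.74 ± 0.19), and Phka2, a subunit of the kinase that starts glycogen breakdown (−0.58 ± 0.14). Gyg and Phka2 lost their calls in 10 and 8 of the 12 fits without 1 library.

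No gene of gluconeogenesis was called lower by night. Of 26 genes of gluconeogenesis and fasting signals, 3 rose. Got1, the cytosolic aspartate aminotransferase, rose by 1.05 ± 0.18, and Fbp1, fructose bisphosphatase, by 0.43 ± 0.11, a call lost in 10 of 12 fits without 1 library. Got1 lost its call with the times pooled, with all 72 libraries in the fit and for ZT18 against ZT6. Its call was also lost with the 18 libraries that add ZT2 and ZT14. Ppp1r3c, another glycogen-targeting subunit of protein phosphatase 1, rose by 1.04 ± 0.12, and its means of 671 ± 113, 354 ± 64.2, 679 ± 28.4 and 1467 ± 151 (SD, n = 3) at ZT6, ZT10, ZT18 and ZT22 put the high level at ZT22 among these times. With the 18 libraries that add ZT2 and ZT14 its change was 0.03 (limma adjusted p 0.971). Pck1 and G6pc, the key enzymes at the start and end of the pathway, had changes of 0.16 ± 0.18 and 0.09 ± 0.20 (limma adjusted p 0.703 and 0.866). Pck1 was higher at ZT10 (6399 ± 1740) than at ZT6 (2347 ± 620), by 1.44 (limma adjusted p 0.0248).

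The droplet coat genes Plin5 and Plin4 rose by night, and few other lipid genes were called. Plin5, a coat protein that couples droplets to mitochondria, had 46.3, 67.5 and 79.0 by day and 151, 187 and 219 by night (1.55 ± 0.14, limma adjusted p 4.37e-05). Plin4, another coat protein, rose by 0.82 ± 0.19. They were the 2 calls among 19 triglyceride and droplet genes, whose median change was 0.46. The coat gene Plin2 and the droplet gene Cideb had changes of −0.12 ± 0.27 and 0.06 ± 0.22. Among 20 genes of fatty acid synthesis, Thrsp, a lipogenic regulator, rose by 1.01 ± 0.26 and Elovl2, an elongase of polyunsaturated fatty acids, fell by 0.48 ± 0.11. Fasn, the fatty acid synthase, ranged from 473 to 3716 by day and from 384 to 4446 by night (0.35 ± 0.44, limma adjusted p 0.725). Srebf1, which drives lipogenic genes, ranged from 86.2 to 860 by day and from 61.3 to 651 by night (0.26 ± 0.42). The spread of both genes inside each group was larger than the difference between the groups.

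Of 23 genes of cholesterol synthesis and its control, none rose and 3 fell, although 15 had a change above 0 and the median change was 0.20. The falls were Stard4, a sterol carrier (−0.59 ± 0.09), and the ring enzymes Nsdhl (−0.45 ± 0.12) and Sc5d (−0.39 ± 0.09). Of 34 genes of fatty acid oxidation and ketogenesis, 1 rose and 2 fell, while 24 had a change above 0 and the median change was 0.14. Acot1, an acyl-CoA thioesterase, rose by 0.90 ± 0.16. Ppara, the receptor that drives fasting fat oxidation, fell by 0.53 ± 0.14, and its target Vnn1, a pantetheinase, by 0.56 ± 0.11. Cpt1a, the gate of mitochondrial oxidation, had a change of −0.25 ± 0.14 (limma adjusted p 0.36). Of the 18 lipoprotein genes only Abca1, which loads cholesterol onto particles, was called, with a fall of 0.40 ± 0.11 that became −0.15 (adjusted p 0.434) with the GC and length trend removed. Plin4, Thrsp, Elovl2, Nsdhl, Sc5d, Ppara and Abca1 each lost their call without at least 1 library.

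**Figure D3:**
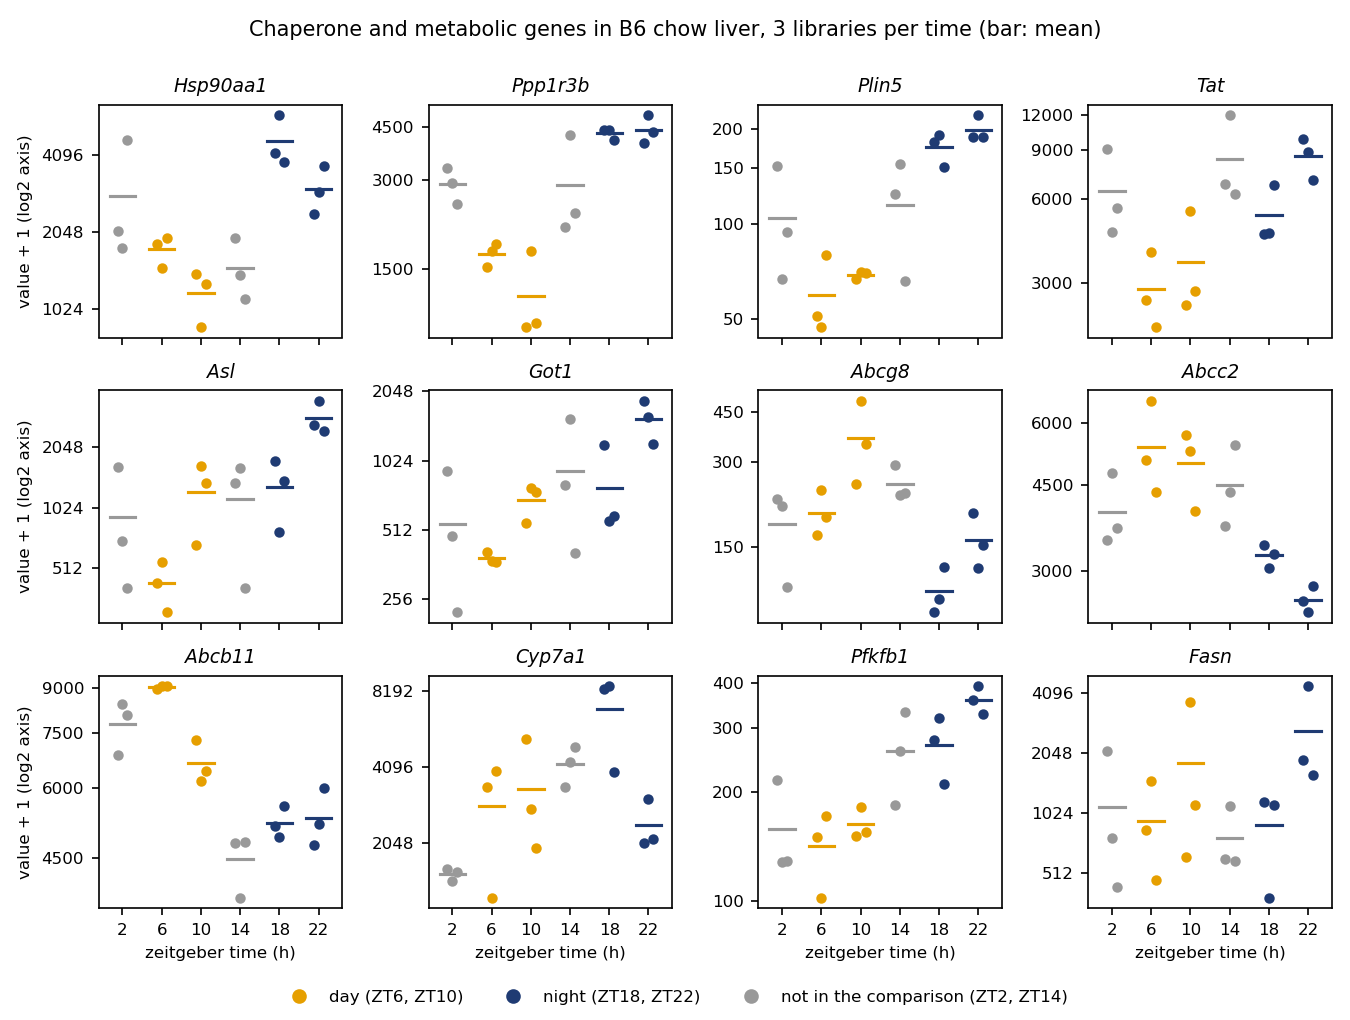
Levels of 12 chaperone and metabolic genes by zeitgeber time in B6 chow liver (level + 1 on a log2 axis, 1 point per library, bars at the mean of 3 libraries), with day in orange, night in blue and ZT2 and ZT14, which are outside the comparison, in grey. Hsp90aa1, Ppp1r3b and Plin5 lie higher at both night times, Abcc2 and Abcb11 lie higher at both day times, Cyp7a1 is high at ZT18, and Fasn spreads from 384 to 4446 by night.

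In drug metabolism, 4 of 37 genes rose and 1 fell, with a median change of 0.09. Besides Cyp2b10, the sulfotransferases Sult1d1 and Sult1a1 rose by 1.51 ± 0.28 and 1.18 ± 0.15. Sult1a1 went from 842, 984 and 1420 to 1758, 2458 and 2757. Of the Cyp2c cluster, whose members resemble each other closely, Cyp2c37 rose by 0.53 ± 0.11 and Cyp2c55 fell by 0.71 ± 0.14. Alas1, the rate-limiting enzyme of heme synthesis, had a night to day change of 0.47 ± 0.28 (limma adjusted p 0.411), which hid a day difference: its mean was 515 ± 176 (SD, n = 3) at ZT6 and 2483 ± 1575 at ZT10, higher by 2.14 (limma adjusted p 0.0272). Por, the reductase that feeds electrons to cytochromes P450, was higher at ZT10 than at ZT6 by 1.93 (limma adjusted p 0.0211), and Cyp2a5 by 1.68 (limma adjusted p 0.0151). Of 14 NAD genes, Nnmt and Afmid, an enzyme of tryptophan breakdown, rose, the latter by 0.64 ± 0.14. Nampt, the rate-limiting enzyme of NAD salvage, had a change of 0.37 ± 0.14 (limma adjusted p 0.162).

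Among 28 autophagy and lysosome genes, Ddit4 rose and 3 fell, with a median change of 0.08. Ulk1, the kinase that starts autophagy, fell by 1.03 ± 0.24, Atg14, a subunit of the lipid kinase that nucleates autophagosomes, by 0.50 ± 0.12, and Deptor, an inhibitor of mTOR, by 0.89 ± 0.15. Deptor had 1515, 2022 and 3120 by day and 918, 1158 and 1380 by night, with no overlap. No lysosomal gene of the 9 tested was called. Of 17 cell cycle genes, the brakes Cdkn1a and Btg1 rose and the cyclin Ccnd1 fell. Cdkn1a, the inhibitor p21, rose by 2.82 ± 0.58 from a low level, with a day range of 0.07 to 11.5 and a night range of 4.21 to 68.6. Its call was lost with the times pooled, for ZT18 against ZT6 and with the 18 libraries that add ZT2 and ZT14. Ccnd1 fell by 0.75 ± 0.18 and Btg1 rose by 0.52 ± 0.13. Of 6 immediate early genes tested, Klf10 fell by 1.05 ± 0.24 and Zfp36, which destabilises cytokine messengers, by 0.71 ± 0.17. Of 18 NRF2 antioxidant genes, Gclc, the catalytic subunit of glutathione synthesis, fell by 0.50 ± 0.13. Mt1 and Mt2, metallothioneins on the same list, had changes of 1.76 ± 0.51 and 2.71 ± 0.76 that missed the threshold (limma adjusted p 0.0688 and 0.0618). The calls of Cyp2c37, Afmid, Ulk1, Atg14, Ccnd1, Btg1, Klf10, Zfp36 and Gclc each ended without at least 1 library.

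Some lists moved little or had no call. No gene was called among 29 endoplasmic reticulum chaperone and unfolded protein response genes, 27 genes of secretory pathway entry, 30 of ribosome biogenesis, 33 of the proteasome, 19 of the acute phase, 13 of the interferon response or the 2 cold-inducible RNA-binding proteins. The interferon list had the lowest of these medians apart from the cold-inducible pair, −0.32. All 75 ribosomal protein genes had a change above 0, with a median of 0.22 and no call, and all 44 respiratory chain genes had a change above 0, with a median of 0.23 and 1 call, Ndufv2 of complex I (0.35 ± 0.09, a call lost in 11 of 12 fits without 1 library). With the GC and length trend removed the medians were 0.08 and 0.11, and Ndufv2 was not called (adjusted p 0.105).

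**Figure D4:**
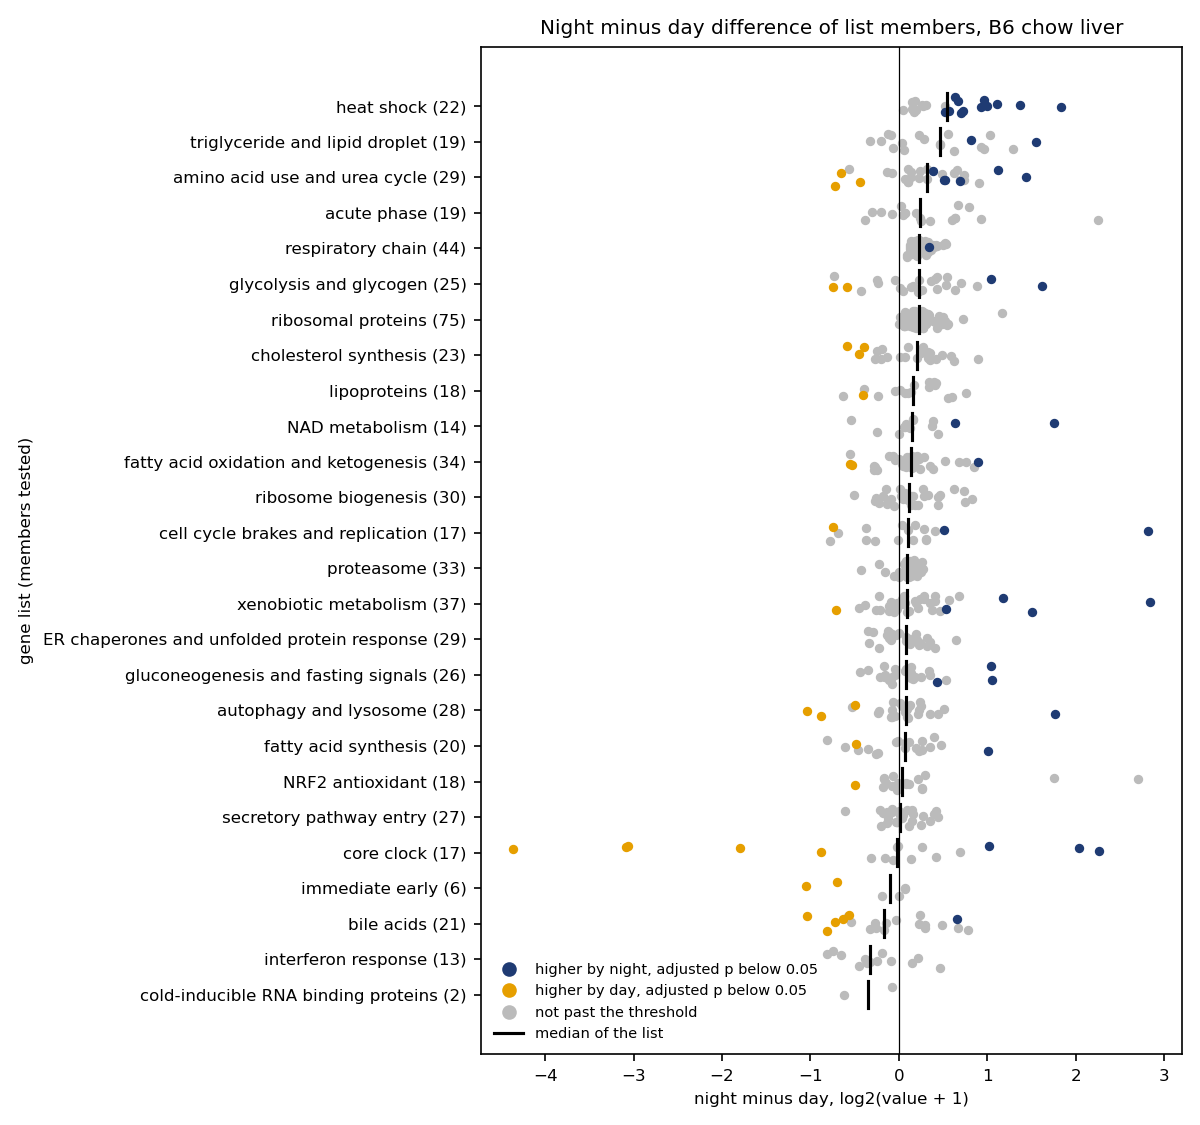
Night minus day changes (log2) of the members of the pathway lists, 1 point per tested gene and 1 row per list, with genes called higher by night in blue, genes called higher by day in orange, other genes in grey and the list median as a black bar. Heat shock genes lie wholly above 0 with a median of 0.54, and ribosomal proteins and the respiratory chain lie wholly but narrowly above 0.

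The markers of hepatocytes were high, as the label liver implies: Alb sat at the top value of the table, 863453, in all 12 libraries, so a change in it could not be seen, and the summed log2 level of 11 hepatocyte markers was 145.1 to 155.4 by day and 144.4 to 156.4 by night, with no marker called. A bulk value cannot tell fewer cells of a type from less RNA per cell. Cd163, a scavenger receptor of Kupffer cells, rose by 0.75 ± 0.17, from 68.7, 112 and 138 to 139, 184 and 277, the 1 call among 12 Kupffer cell markers. The summed Kupffer level was 67.6 to 84.7 by day and 73.5 to 86.9 by night. Of 12 markers of sinusoidal endothelium, Lyve1 rose by 0.98 ± 0.21 and Dnase1l3 fell by 0.54 ± 0.12. These 3 calls each ended without at least 1 library. The summed level of 7 erythroid markers was 19.1 to 32.8 by day and 28.6 to 37.2 by night, the smallest p of the 11 marker lists (exact permutation test, p = 0.0584, adjusted p = 0.438 over 15 library measures). The summed level of 8 neutrophil markers was 1.58 to 10.05 over the 12 libraries, and 2 of them stayed under 1 in every library. No marker was at 0 in all 12 libraries. The part of these cells in the changes above was not tested.

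Few genes were called between the 2 times inside each group, with 3 libraries against 3. ZT22 against ZT18 called 25 genes (0.223% of those tested), 17 higher and 8 lower at ZT22, and ZT10 against ZT6 called 73 (0.652%), 33 higher and 40 lower at ZT10. The clock list held 2 of the former and 6 of the latter. At ZT10 Ciart, Tef, Per3 and Dbp were higher than at ZT6, by 4.95, 1.57, 1.59 and 2.15, and Arntl and Clock were lower, by 2.83 and 1.06. At ZT22 Nfil3 was higher than at ZT18 by 0.94 and Nr1d2 lower by 1.54. Tef, a D-box activator, shows what the grouping hides: its means were 357 ± 54.2, 1066 ± 208, 527 ± 74.2 and 462 ± 39.8 (SD, n = 3) at ZT6, ZT10, ZT18 and ZT22, and its night to day change was −0.31 ± 0.12. Gys2, the liver glycogen synthase, was higher at ZT10 than at ZT6 by 1.02 (limma adjusted p 0.0121), with a night to day change of 0.05 ± 0.11. The GC slope also moved inside the groups. It was 0.295 to 0.568 at ZT22 and −0.770 to 0.0105 at ZT18. At ZT10 it was −0.257 to 0.654, and at ZT6 −0.650 to −0.0653. The median change of the 75 ribosomal protein genes was 0.70 for ZT22 against ZT18 and 0.59 for ZT10 against ZT6. That of the 22 heat shock genes was −0.22 and −0.02. The part of the GC slope in the differences between these times was not tested.

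Whether the night to day change differed on the other diet was tested as an interaction over 24 libraries. None of 11190 genes passed against B6 HFD (0%; limma, adjusted p below 0.05), and 1303 had an unadjusted p below 0.05. The count was 38 without the first ZT6 replicate of B6 HFD, 14 without the third ZT10 replicate of B6 chow, 11 without the first ZT22 replicate of B6 HFD and 51 with all 72 libraries in the fit. In the HFD libraries on their own, 33 genes were called, 22 higher and 11 lower by night, and 25 of these were among the 539 calls of chow with the same sign (4.64% of the chow calls and 75.8% of the HFD calls). Of the 539, 420 had the same sign on HFD. Hsp90aa1 changed by 0.84 ± 0.21 on HFD against 1.37 ± 0.15 on chow, Ppp1r3b by 0.65 ± 0.30 against 1.62 ± 0.14 and Abcc2 by −0.17 ± 0.12 against −0.81 ± 0.12, differences that did not pass the interaction test (limma adjusted p 0.46, 0.3 and 0.198).

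**Figure D5:**
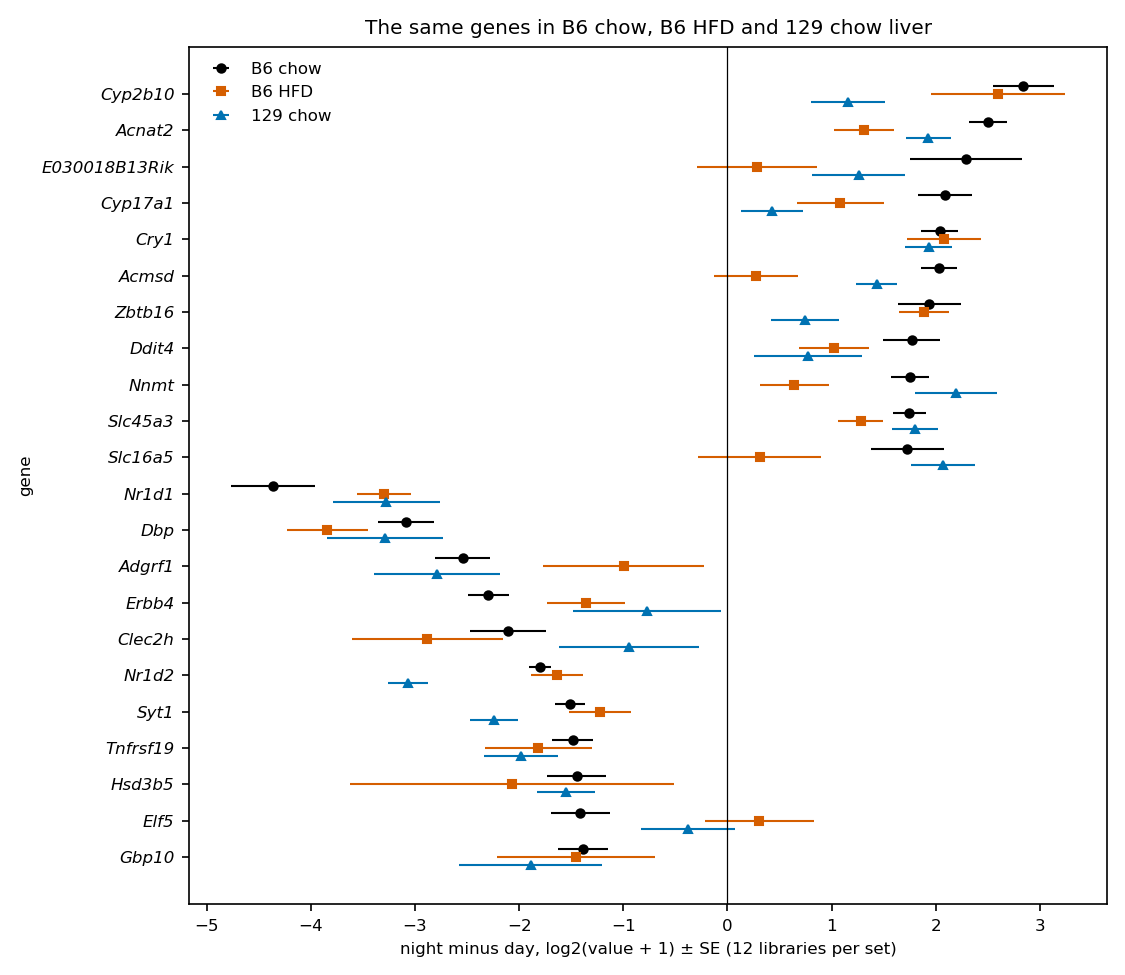
Night minus day change (log2) of 22 of the genes with the largest changes in B6 chow (black circles), beside the same change in B6 HFD (orange squares) and 129 chow (blue triangles), each estimated within its own 12 libraries, with bars of 1 SE. The genes were picked for their change in B6 chow, and all but Elf5, at 0.30 in B6 HFD, have the same sign in the 3 sets.

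Against 129 chow, 1126 genes passed the interaction, 630 (5.63%) with a change higher in B6 and 496 (4.43%) with a change lower in B6, and 135 of them were among the 539 calls. Without 1 library the number of genes whose night-day change differed between B6 chow and 129 chow was between 622 (without the third ZT10 replicate of 129) and 2310 (without the third ZT6 replicate of 129), and it was 687 and 683 without the second ZT6 and ZT10 replicates of B6. The GC slope of 129 chow differed between night and day by 0.662 (exact permutation test, two-sided, n = 6 and 6, p = 0.00433), against 0.12 in B6 chow, and reads of 129 were aligned to mm10, the B6 genome. With the GC and length trend removed, 862 genes passed, 218 higher and 644 lower in B6, so that the balance of the directions turned. The part of the GC slope in single genes was tested only by that removal. By list, 12 of 29 endoplasmic reticulum chaperone and unfolded protein response genes passed, all with a change lower in B6, as did 8 of 27 genes of secretory pathway entry, 6 of them lower. Of the lipid lists, 4 of 20 fatty acid synthesis genes and 5 of 23 cholesterol synthesis genes passed, also with a change lower in B6. Of 37 drug metabolism genes 8 passed and of 44 respiratory chain genes 9, each with a change higher in B6. After the GC and length removal the lists gave 14 lower for the chaperones of the endoplasmic reticulum, 11 for secretory entry, 6 for fatty acid synthesis and 9 for cholesterol synthesis, with none higher, but 4 lower and none higher for drug metabolism and 2 higher for the respiratory chain. Fasn changed by 2.97 ± 0.32 in 129 against 0.35 ± 0.44 in B6, a difference of −2.62 (limma adjusted p 0.0102). The differences of the sterol regulator Srebf2 and the lipogenic factors Mid1ip1 and Mlxipl were −1.52, −1.59 and −1.45.

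Among the largest differences from 129 were −6.01 for Mir6236, −5.22 for Angptl8, a feeding-induced inhibitor of lipid clearance, −3.24 for Tsku, a secreted protein, and −3.16 for Mbd6, all with a rise by night in 129. In the other direction they were 4.02 for Rgs16, 3.26 for Fam107a, 2.998 for Tm6sf1, 2.83 for Rnaset2a, which has a near-identical copy, and 2.66 for 1110020A21Rik. Of these 9 genes only Fam107a was called in B6 chow (3.03 ± 0.69), from a day range of 0 to 3.91 to a night range of 2.46 to 71.4, and its call was lost in 4 of 12 fits without 1 library (limma adjusted p up to 0.0776) and with pseudocount 0.1. In the clock, Per2 rose by 2.14 ± 0.20 in 129 against 0.69 ± 0.20 in B6 (difference −1.45, limma adjusted p 0.00468), and Nr1d2 fell by 3.06 ± 0.19 against 1.80 ± 0.11 (difference 1.27, limma adjusted p 0.00179). Cyp2b10 and Cyp17a1 rose more in B6, by 1.69 and 1.66, and Got1 by 1.11. Abcc2 fell in B6 and showed 0.22 ± 0.11 in 129, a difference of −1.03 (limma adjusted p 0.00058). Among the chaperones, Hsph1 and Hspa8 differed by −0.91 and −0.61, and Hspe1 by 0.84. The differences of Cyp2b10, Fam107a, Rnaset2a, 1110020A21Rik and Hspe1 did not pass once the GC and length trend was removed.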

How the data were processed

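Liver RNA was isolated by Trizol followed by columns, and sequenced from TruSeq libraries, per the labels' protocols. STAR, HOMER and the mm10 build are named, without versions, in the submitters' processing notes. The signal that the authors deposited is a quantile-normalised number of reads for each of 42361 RefSeq transcripts (25125 gene symbols) in 72 libraries. Checked on the file, all libraries share the same sorted values, with a total of 10837743 and 23.5% at 0. Depth is therefore unknown, no counting interval can be given, a shift common to most genes would leave no trace, and the most abundant transcripts hold few distinct values.

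The transcript with the highest mean was kept per symbol, where its mean over the 12 libraries was at least 10. Values were tested as log2(value + 1) with limma 3.58.1 (R 4.3.3, eBayes with trend) on 4 time-point means, with no replicate block, and p-values were adjusted by Benjamini-Hochberg over all 11190 genes. Interactions were fitted over 24 libraries with 8 means. The fits were tested on simulated data with noise drawn independently for each gene and library. Variation shared across genes, such as that of the first principal component, was not simulated. Differences between ZT22 and ZT18 and between ZT10 and ZT6 came from the 12-library fit and were chosen after the data were seen. Library measures (GC slope, length slope, share of tested genes under 1, Mir6236 and 11 marker lists, 15 in all) were compared by an exact permutation test. Promoters were taken from RefSeq (GRCm38.p6) where the start lay within 100 bases of the deposited one.

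The 26 pathway lists, the 11 marker lists and the comparison itself were chosen with earlier results of these data known. Named genes were the 12 largest rises and 12 largest falls among called genes without overlap, all core clock genes, up to 5 called members per list and direction, regulators and rate-limiting enzymes of the lists, genes with a searched promoter element, and the 5 largest interactions per direction. Some genes are not reported here; they stayed in the fits and in the counts over all genes, and were left out of the lists, the named genes and the figures. The other called heat shock genes, and Cyp2a5, Gys2 and Hspa1b, were named after their values were seen. Alternatives were other pseudocounts, filters, time points, libraries, a replicate block, removal of the GC and length trend, a Mir6236 covariate, summed transcripts, a robust fit and leaving out each library.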

Additional observations from a re-analysis of the deposited data

Results flagged for a closer look

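Among 250 groups of 6 libraries examined (110 genes and 15 library measures, by day and by night), 19 held 1 library whose gap to the nearest other was, as a share of the range on the log2 scale, above Dixon's 95% critical value for groups of this size. Chance gives about 1 in 20. The third ZT18 replicate was the low one by night in Cry1 (137.9, others 252.1 to 337.6), Tnfrsf19 (14.56, others 21.94 to 26.39), Acot1 (111.2, others 187.7 to 244.6), Arg1 (8272, others from 11030), Sult1a1 (1758, others 2411 to 2757) and Hsf1 (17.52, others 23.48 to 25.62). The second ZT18 replicate was low in Ppara (878.9), Cpt1a (932.1) and Por (320.4) and high in E030018B13Rik (92.68) and in the share of tested genes under 1 (0.429%, others up to 0.0358%). The first ZT18 replicate was low in Elovl2 (2094) and high in Gyg (41.83). By day, the second ZT6 replicate was low in Nnmt (158.6) and Pfkfb1 (100.8) and high in Zfp36 (204.5), the first ZT6 replicate was at 0.0 in E030018B13Rik and high in the share under 1 (0.474%, others up to 0.134%), and the third ZT10 replicate was low in Cyp2b10 (66.43, others 97.44 to 119.4). Elovl2, Ppara, Gyg, Arg1, Zfp36 and E030018B13Rik are among the calls that ended without at least 1 library.

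The night to day change differed between B6 chow and 129 chow, by the limma interaction, in 39 named genes, 18 with a higher and 21 with a lower change in B6. The GC slope of 129 chow differed between night and day by 0.662 (exact permutation p = 0.00433), and that of B6 chow by 0.12. Of these 39 genes, 25 passed with the GC and length trend removed, 30 with the replicate block and 30 with all 72 libraries. Clock genes were Per2 (−1.45), Bhlhe40 (−0.67) and Nr1d2 (1.27). Members of the fatty acid and cholesterol synthesis lists were Fasn (−2.62), Mid1ip1 (−1.59), Mlxipl (−1.45), Srebf2 (−1.52), Insig1 (−0.71) and Stard4 (−0.59). Drug and steroid metabolism genes were Cyp2b10 (1.69), Cyp17a1 (1.66), Cyp2c37 (1.20), Sult1d1 (1.29), Sult1a1 (0.79) and Cyb5a (0.45), and a bile exporter was Abcc2 (−1.03). Amino acid genes were Got1 (1.11), Aass (0.60), Gpt2 (0.49) and Slc38a4 (0.52). Chaperones and stress factors were Hsph1 (−0.91), Hspa8 (−0.61), Hspe1 (0.84), Creb3l2 (−1.26) and Gclc (−0.56). The others were Angptl8 (−5.22), Abca1 (−0.62), Deptor (−0.73), Bnip3 (0.78), Zfp36 (−0.90), Dnase1l3 (−0.81), Mir6236 (−6.01), Tsku (−3.24), Mbd6 (−3.16), Rgs16 (4.02), Fam107a (3.26), Tm6sf1 (2.998), Rnaset2a (2.83) and 1110020A21Rik (2.66). The 14 that did not pass with the GC and length trend removed were 1110020A21Rik, Aass, Abca1, Bnip3, Cyb5a, Cyp2b10, Cyp2c37, Fam107a, Hspe1, Rnaset2a, Slc38a4, Sult1a1, Sult1d1 and Zfp36.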

How the results depend on the processing

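The 539 night against day calls rested on the spread of 12 libraries, and depth is unknown after quantile normalisation, so what depth limits could not be assessed. The count was 877 with no filter on low values, 165 with the times pooled, 843 with the GC and length trend removed, 1192 with the Mir6236 level as a covariate, 101 for ZT18 against ZT6 only, 253 for ZT22 against ZT10 only and 259 with 18 libraries that add ZT2 and ZT14. Leaving out 1 library gave 262 to 657 calls: 302 without ZT18 replicate 1, and 315, 262 and 303 without ZT22 replicates 1, 2 and 3. The cause of these shifts was not tested, beyond the smaller number of libraries in the single-time fits. Over the replicate numbers, same-numbered libraries of different times correlated at −0.535 to 0.411 in their deviations (5 of 18 pairs over 0.1) and 4 of 12 libraries were closest to one of their own number, so the numbers were not taken as pairs. With the replicate block there were 371 calls (162 higher by night, 209 higher by day), and 707 with the block and the GC and length trend removed together. Of the 89 called genes named, 64 kept their call with the block, 82 with the GC and length trend removed, 89 with the Mir6236 covariate, 49 with the times pooled, 28 for ZT18 against ZT6, 44 for ZT22 against ZT10 and 43 with 18 libraries. The interaction with B6 HFD gave 0 calls, 51 with all 72 libraries, 6 with the GC and length trend removed, 0 with the replicate block and 0 to 38 with 1 library left out. The number of genes whose night-day change differed between B6 chow and 129 chow was 1126, 762 with the replicate block, and 622 (without 129 ZT10 replicate 3) to 2310 (without 129 ZT6 replicate 3) with 1 library left out. It gave 687 and 683 without B6 ZT6 and ZT10 replicate 2. The GC removal and the block were not run together for it.

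Changes of sign were few among called genes and came with the choice of times. ZT18 against ZT6 gave 0.41 for Per3 and −0.033 for Btg1, ZT22 against ZT10 gave 0.0006155 for Sc5d and −0.095 for Hspa8, and 18 libraries gave 0.68 for Per3. Among genes that were not called, ZT18 against ZT6 gave −0.081 for Fasn, −0.23 for G6pc, 0.70 for Per1, 0.56 for Tef, 0.11 for Hlf and 0.38 for Bhlhe40. ZT22 against ZT10 gave −0.37 for Cyp7a1, −0.14 for Pck1, −0.87 for Alas1, −0.36 for Nampt, −0.024 for Por, −0.25 for Per2, −0.32 for Cry2, −2.49 for Ciart and 0.054 for Rora. The 18 libraries gave −0.46 for Srebf2, 0.042 for Cpt1a, −0.0096 for Hsf1, −0.070 for Clock, 0.42 for Per1, −0.35 for Cry2, 0.57 for Tef and 0.27 for Bhlhe40. With the GC and length trend removed, with or without the replicate block, Hsf1 was at −0.020, Rora at 0.17 and Hlf at 0.069, and the Cyb5a difference from 129 chow was at −0.018 without the block. With the Mir6236 covariate Fasn was at −0.12, Srebf1 at −0.18, G6pc at −0.091 and Hsf1 at −0.035. Pseudocount 5 gave −0.20 for Ciart and −0.086 for the summed cholangiocyte markers, pseudocount 0.1 gave 0.0055 and summed transcripts 0.018 for Per1, and a filter at 50 left a difference of 0.0 in the share of genes under 1. With 1 library left out the ranges were −0.0080 to 0.28 for Cry2, −0.36 to 0.37 for Per1, −0.18 to 0.017 for Hlf, −0.13 to 0.11 for Bhlhe40, −0.059 to 0.24 for G6pc and −0.13 to 0.33 for Hsf1.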

Other observations

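The times outside the comparison, ZT2 and ZT14, hold 3 further B6 chow libraries each, given here as means ± SD (n = 3) with no test. Arntl, Nfil3 and Ppp1r3c, higher by night in the comparison, had ZT2 means close to those of ZT22, while at ZT14 they were at 19.7 ± 21.0, 82.8 ± 4.22 and 438 ± 285, near their day levels. Arntl was at 219 ± 4.99 and Nfil3 at 204 ± 41.7 at ZT2, beside 218 ± 11.3 and 202 ± 11.8 at ZT22. Ppp1r3c was at 1448 ± 120 at ZT2, beside 1467 ± 151 at ZT22. Ppp1r3b was at 2897 ± 395 at ZT2 and 2874 ± 1184 at ZT14, between its day and its night means. Dbp was at 1.40 ± 0.41 at ZT2 and 78.5 ± 37.2 at ZT14, so ZT2 held its lowest mean and ZT14 was above both night times. Per3 was at 10.03 ± 0.52 at ZT2.

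The chaperones Hspa1b and Hsp90aa1 had their widest spread at ZT2, at 190 ± 262 and 2834 ± 1603. Pck1 had its highest mean at ZT14, 10380 ± 1599, and so did Alas1, at 3346 ± 343. Cyp2b10 was at 135 ± 38.4 at ZT2 and 133 ± 78.6 at ZT14, beside 776 ± 436 at ZT18. Abcb11 was at 4481 ± 560 at ZT14 and 7792 ± 828 at ZT2, and Abcg5 at 420 ± 41.7 and 224 ± 49.7, so the 2 transporters, both higher by day in the comparison, differed in order at these times.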
